A study of Fundulus heteroclitus with 36 samples.

Results

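The response of the embryonic brain to a low dose of PCB126 was compared between 2 populations of the Atlantic killifish (Fundulus heteroclitus). The quantity described here is the response of New Bedford Harbor (NBH) embryos minus the response of Scorton Creek (SCO) embryos, on the log2 scale. Each response is the change from the control embryos of the same population. A positive value means a more positive or less negative change in NBH than in SCO. It does not mean a higher level in exposed NBH embryos than in exposed SCO embryos. The difference rests on 24 of the 36 libraries of the series. There are 6 in each of the groups NBH PCB40, NBH Control, SCO PCB40 and SCO Control. Each library is the whole brain of an individual embryo at 17 days post fertilization. PCB40 embryos were held in 40 ng/L PCB126 from day 1 to day 7 post fertilization. By the series' design text, the exposed embryos of both populations were offspring of parents on the low-methylmercury salmon diet, which is also the diet named for the control breeding stock. The 2 other groups, NBH PCB400 (400 ng/L PCB126) and SCO Hg Fed (parents on the high-methylmercury diet), enter only as further levels and in the shared estimate of spread. The labels do not say whether the embryos of a group shared parents, a clutch or an extraction day, so each p-value measures the spread between these embryos.

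PCB126 is a dioxin-like polychlorinated biphenyl. It binds the aryl hydrocarbon receptor (AHR), which pairs with ARNT in the nucleus and switches on a battery of genes led by the cytochrome P450 CYP1A. The killifish of New Bedford Harbor, a site with a long history of PCB pollution, are a standard example of an evolved tolerance to dioxin-like compounds, with a blunted AHR response, whereas Scorton Creek fish are used as sensitive reference fish.

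Each of the 24 libraries held 40.4 to 66.4 M (1e6) estimated reads, with a median of 53.3 M, and 23292 genes were tested. Levels are in counts per M reads (CPM). Of 29 brain markers listed, 23 matched a gene, and all 23 were detected. Among them were elavl3, a marker of neurons, at 746 to 1410 CPM, and slc17a7a at 0.445 to 10.5 CPM. Long and short transcripts were not represented alike in every library. A length slope per library (log2 per log2) was fitted to log2 CPM minus each gene's mean over the 36 libraries, against transcript length. Genes with a mean log2 CPM over 2 were used, and the sign is relative to the series mean. The slope averaged -0.080 in NBH PCB40 (SD 0.116, 5 of 6 libraries negative) and -0.086 in NBH Control (SD 0.0296). It averaged -0.021 in SCO PCB40 (SD 0.150, 3 of 6 negative) and 0.093 in SCO Control (SD 0.0424, 6 of 6 positive). Across the 23292 genes, the Spearman correlation of the log2 change with transcript length was 0.33 for the difference between populations, 0.04 for the NBH response and -0.36 for the SCO response. These are descriptions across genes, which are not independent.

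Calls rest on edgeR's quasi-likelihood test at an adjusted p (Benjamini-Hochberg, over all genes tested) under 0.05. The response differed between the populations for 4 genes, fut9a, kmt2e, si:ch211-183d21.3 and crk, which is 0.0172% of the genes tested. In all 4 the difference was positive. In the NBH embryos alone, 0 genes (0%) were called by edgeR, 0 by limma-voom and 18 by DESeq2, and 713 genes (3.06%) had an unadjusted p under 0.05. In the SCO embryos alone, 622 genes (2.67%) changed with PCB40, 175 higher (0.751%) and 447 lower (1.92%). At that unadjusted level 2136 genes (9.17%) had a difference in response, positive for 1309 (5.62%) and negative for 827 (3.55%).

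CYP1A, which oxidises planar aromatic compounds and is the standard marker of AHR activation, had 7.14, 78.1 and 149 CPM in NBH PCB40 embryos (lowest, median, highest), against 2.72, 5.11 and 11.8 CPM in NBH Control embryos. In Scorton Creek it had 97.8, 125 and 270 CPM in SCO PCB40 embryos, against 1.08, 2.55 and 11.0 CPM in SCO Control embryos. In 5 of the 6 NBH PCB40 embryos CYP1A lay above every NBH Control embryo, and the other lay within the control range. For this partial separation no share over all genes was counted. All 6 SCO PCB40 embryos lay above every SCO Control embryo, as for 0.481% of all genes. The NBH response was 3.63 on the log2 scale, or 12.4-fold, and was not called (SE 0.67, unadjusted p = 4.80e-06, adjusted p = 0.112). It was called without NBH PCB40 replicate 6, at 3.87 with an adjusted p of 0.0157, and by DESeq2 at an adjusted p of 1.64e-05. It was not called by limma-voom, at 3.16. Nor did edgeR call it with a replicate block (adjusted p = 0.510), tissue scores as covariates (0.368) or the 24 libraries alone (0.2405). Over the 24 fits that each left out 1 library, edgeR's adjusted p for the NBH response ran from 0.0157 to 0.214. The SCO response was 4.96, a 31.0-fold increase (SE 0.71, edgeR adjusted p = 1.49e-04).

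The CYP1A responses themselves did not differ beyond their error. The NBH response minus the SCO response was -1.33 (SE 0.86, 95% interval -3.07 to 0.42, adjusted p = 0.665). The interval holds both a weaker and a slightly stronger induction in NBH. Among the exposed embryos, 3 of the 6 NBH PCB40 brains had less CYP1A than every SCO PCB40 brain. These were replicates 1, 4 and 6 with 20.7, 45.9 and 7.14 CPM. The share of all genes with such a partial separation was not counted, so the count describes these embryos only. Control brains averaged 6.47 ± 3.96 CPM in NBH Control and 4.71 ± 4.33 CPM in SCO Control (SD, n = 6 each), which was not a called difference (log2 0.46, SE 0.62, adjusted p = 0.632). With 400 ng/L, NBH embryos averaged 396 ± 192 CPM (SD, n = 6). None of the 6 groups of the series is SCO with 400 ng/L.

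**Figure D1:**
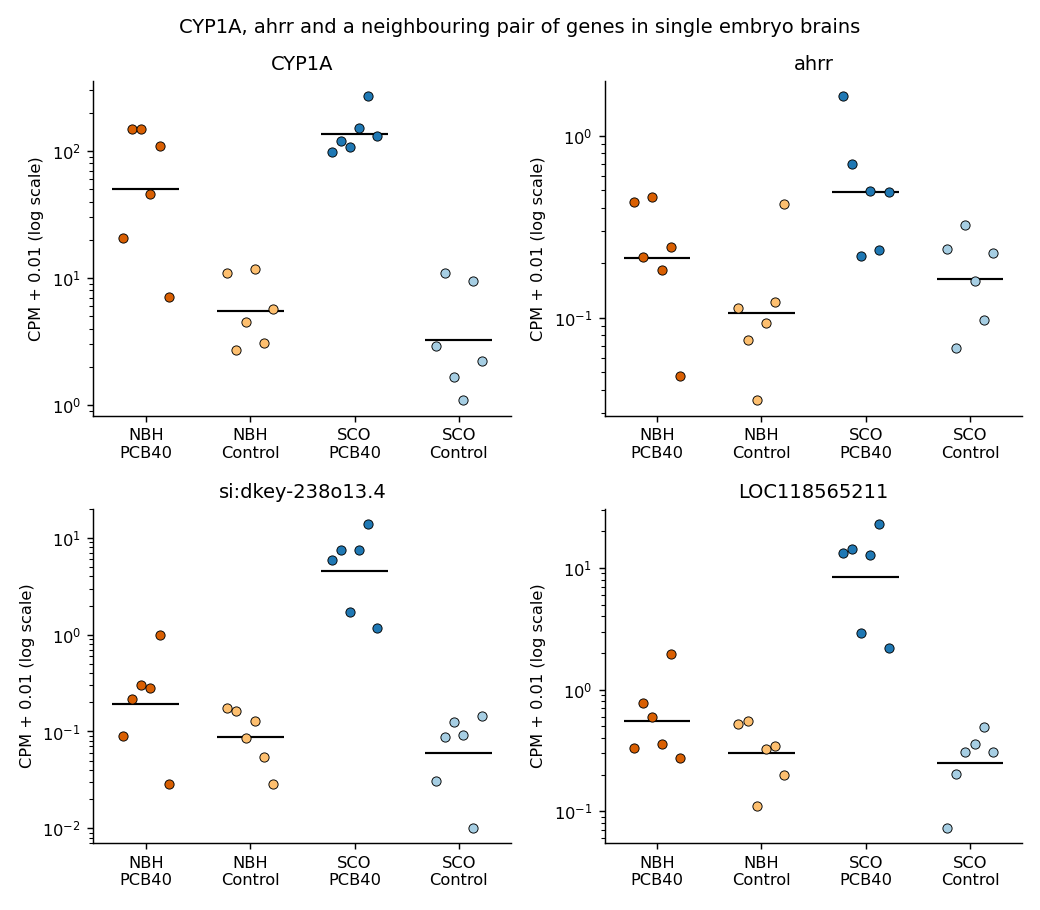
Levels of CYP1A, ahrr, si:dkey-238o13.4 and LOC118565211 in each embryo brain, as CPM + 0.01 on a log axis, for NBH PCB40, NBH Control, SCO PCB40 and SCO Control. Points are embryos and bars are geometric means (n = 6). CYP1A lies above every control of its population in 5 of 6 NBH PCB40 brains and all 6 SCO PCB40 brains, while si:dkey-238o13.4 and LOC118565211 separate fully between NBH PCB40 and SCO PCB40.

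The differences of the other AHR targets did not pass the test. ahrr, which encodes the AHR repressor, a feedback inhibitor of the receptor, had 0.0379, 0.221 and 0.449 CPM in NBH PCB40 embryos, against 0.025, 0.0932 and 0.412 CPM in NBH Control embryos. It had 0.207, 0.483 and 1.64 CPM in SCO PCB40 embryos, against 0.0582, 0.183 and 0.312 CPM in SCO Control embryos. Its response was 0.90 in NBH (SE 0.60) and 1.81 in SCO (SE 0.58, adjusted p = 0.0840), a difference of -0.91 (SE 0.83, adjusted p = 0.775). That difference was -0.14 without NBH Control replicate 6 and -0.34 without SCO PCB40 replicate 1. These levels are low, and the NBH groups overlap except for 2 exposed embryos. nqo1, a quinone reductase, had a difference in response of -0.96 (SE 1.0, adjusted p = 0.806), with mean levels from 0.0597 to 0.387 CPM, and of -0.03 with SCO Hg Fed in place of SCO Control. wfikkn1, a secreted protease inhibitor family member, had a difference of -0.43 (SE 0.57, adjusted p = 0.855), and of 0.20 without SCO PCB40 replicate 5. All 4 listed targets tested had a negative point estimate with all libraries, as did 11986 of all 23292 genes, and 0 of the 4 had an unadjusted p under 0.05.

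Of the 13 receptors and partners of AHR, 10 had a positive and 3 a negative difference in response, beside 11306 and 11986 of all 23292 genes, and 0 were called. ahr2, the main dioxin receptor of killifish, averaged 2.83 ± 0.68 CPM in NBH PCB40, 2.45 ± 0.24 CPM in NBH Control, 3.46 ± 0.67 CPM in SCO PCB40 and 2.98 ± 0.51 CPM in SCO Control (SD, n = 6 each). Its difference in response was -0.01 (SE 0.24, 95% interval -0.49 to 0.48). AHR1, its paralog, had a difference in response of 0.21 (SE 0.43, 95% interval -0.67 to 1.1).

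arnt2, the neural dimerisation partner of AHR, had the smallest p of this list, with a difference of 0.99 (SE 0.30, unadjusted p = 0.00217, adjusted p = 0.271). It had 11.1, 13.8 and 27.3 CPM in NBH PCB40, against 12.0, 12.8 and 14.1 CPM in NBH Control. It had 10.9, 14.7 and 26.7 CPM in SCO PCB40, against 22.9, 27.7 and 33.2 CPM in SCO Control. Among the PCB40 libraries, those with the most arnt2 were NBH PCB40 replicate 1 and SCO PCB40 replicates 1 and 2, at 27.3, 22.9 and 26.7 CPM. Those 3 also had the highest length slopes of the PCB40 libraries, at 0.151, 0.0936 and 0.198. In NBH PCB400, replicates 2 and 6 had 25.0 and 23.9 CPM of arnt2, with slopes of 0.153 and 0.163. In SCO Control, replicate 1 had the highest arnt2 and slope, at 33.2 CPM and 0.137. In SCO Hg Fed, replicate 6 had the lowest arnt2, at 22.4 CPM, with the highest slope, at 0.120. Whether arnt2 follows the slope was not tested. The arnt2 difference was 0.93 (adjusted p = 0.226) with the length trend removed and 0.58 with the slope as a covariate, not called in either fit. ptges3a, which encodes the p23 co-chaperone that holds the unliganded receptor together with HSP90, had a difference of -0.48 (SE 0.19, unadjusted p = 0.0169, adjusted p = 0.438). ncoa2, a nuclear receptor coactivator, had a difference of 0.35 (SE 0.17, unadjusted p = 0.0436, adjusted p = 0.533). For hsp90ab1, the constitutive HSP90, the 95% interval was narrow, from -0.14 to 0.32. The paralogs hsp90aa1.1 and hsp90aa1.2 had a difference of 0.37 (SE 0.43) and 0.09 (SE 0.27), and how reads were divided between them cannot be checked from the deposited values.

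**Figure D2:**
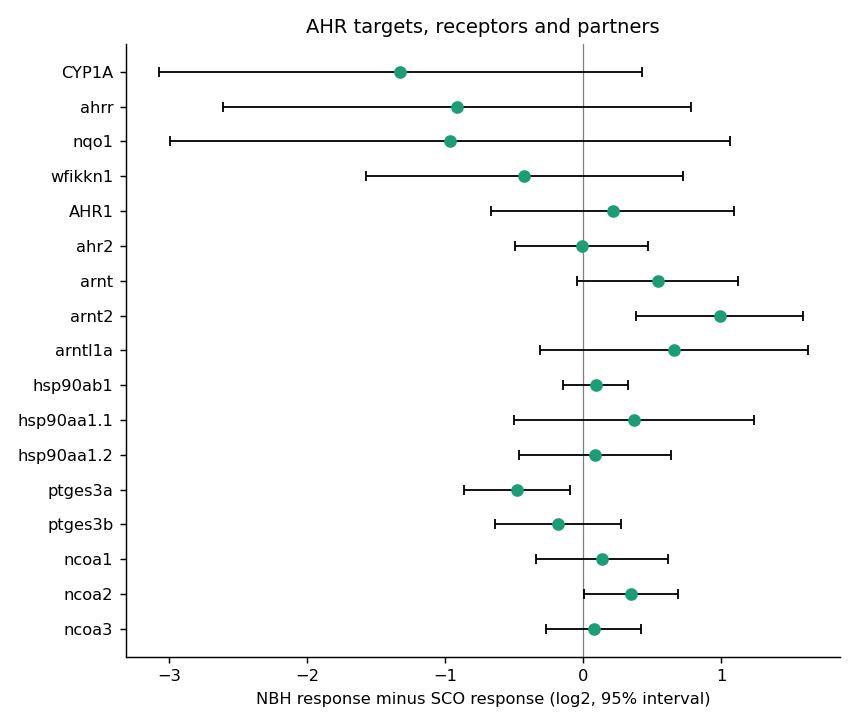
NBH response minus SCO response on the log2 scale (horizontal axis) for the 4 AHR targets and the 13 receptors and partners tested. Points are estimates and bars 95% intervals from the edgeR fit. The 4 targets lie below 0 with wide intervals that include it, ahr2 lies at -0.01, and arnt2 lies at 0.99.

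The 4 genes called as different in response shared a pattern. Each was high in SCO Control brains, fell with PCB40 in SCO to the level of the NBH brains or below it, and was not called in NBH. The clearest was fut9a, an alpha-1,3-fucosyltransferase that in mammals makes the Lewis x carbohydrate of neural cells. It had 12.6, 15.8 and 17.1 CPM in NBH PCB40 embryos, against 14.0, 20.0 and 23.1 CPM in NBH Control embryos. It had 8.30, 11.1 and 15.3 CPM in SCO PCB40 embryos, against 27.7, 40.7 and 62.0 CPM in SCO Control embryos. All 6 SCO PCB40 embryos lay below every SCO Control embryo, as for 1.46% of all genes, while 1 NBH PCB40 embryo lay below every NBH Control embryo. The log2 estimate for fut9a was -0.30 in NBH (SE 0.16, adjusted p = 1.00), whereas it fell 3.63-fold in SCO (log2 -1.86, SE 0.16, adjusted p = 1.18e-08). The difference in response was 1.56 (SE 0.23, 95% interval 1.1 to 2.02, adjusted p = 0.00158).

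kmt2e encodes a SET-domain chromatin reader that binds methylated histone H3. It had 4.68, 6.68 and 8.29 CPM in NBH PCB40, against 6.14, 6.71 and 7.47 CPM in NBH Control. It had 3.77, 4.94 and 6.18 CPM in SCO PCB40, against 9.44, 12.7 and 14.0 CPM in SCO Control. The SCO groups did not overlap and the NBH groups did. The NBH estimate was -0.03 (SE 0.14) and the SCO change -1.27 (SE 0.14), a 2.42-fold fall. Their difference was 1.24 (SE 0.20, 95% interval 0.83 to 1.65, adjusted p = 0.00728).

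si:ch211-183d21.3, to which no role is given here, had 6.38, 8.37 and 10.8 CPM in NBH PCB40, against 7.05, 7.97 and 9.95 CPM in NBH Control. It had 4.68, 7.39 and 11.0 CPM in SCO PCB40, against 14.7, 18.2 and 21.5 CPM in SCO Control. Again the SCO groups separated fully and the NBH groups overlapped. The difference in response was 1.27 (SE 0.22, adjusted p = 0.0164), made of an estimate of 0.03 in NBH (SE 0.16) and a change of -1.25 in SCO (SE 0.16).

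crk, an SH2 and SH3 domain adaptor that relays signals from tyrosine kinases to the cytoskeleton, had 12.7, 14.0 and 19.0 CPM in NBH PCB40, against 11.3, 13.5 and 15.4 CPM in NBH Control. It had 6.38, 10.9 and 12.6 CPM in SCO PCB40, against 18.4, 21.0 and 24.3 CPM in SCO Control. For crk all 6 NBH PCB40 embryos also lay above every SCO PCB40 embryo, as for 0.339% of all genes. The difference in response was 1.16 (SE 0.21, adjusted p = 0.0305), from an estimate of 0.11 in NBH (SE 0.15) and a change of -1.05 in SCO (SE 0.15). Of the 4 calls, those of kmt2e, si:ch211-183d21.3 and crk were lost in some alternative fits, and that of fut9a in 0 of those run.

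The unexposed brains already differed between the populations. NBH Control against SCO Control gave calls for 4048 genes (17.4%), and NBH PCB40 against SCO PCB40 for 169 genes (0.726%), in the same edgeR fit. The Spearman correlation of the log2 change with transcript length was -0.37 for the control contrast and -0.13 for the PCB40 contrast. Neither contrast was run with a length correction. The labels name no batch, so population and batch cannot be told apart. All 6 NBH Control embryos lay below every SCO Control embryo for each of the 4 called genes, as for 7.68% of all genes, and the difference was -1.1 for fut9a (adjusted p = 2.90e-04), -0.84 for kmt2e (adjusted p = 8.11e-04), -1.17 for si:ch211-183d21.3 (adjusted p = 9.36e-05) and -0.65 for crk (adjusted p = 0.00590). NBH PCB40 minus SCO PCB40 was 0.46 for fut9a, 0.40 for kmt2e, 0.10 for si:ch211-183d21.3 and 0.51 for crk, with adjusted p-values of 0.157, 0.170, 0.786 and 0.0911. These contrasts use the same libraries as the difference in response, so they describe it and are no independent evidence. A high SCO level was also present in the SCO Hg Fed embryos, which are not part of the contrast. fut9a averaged 40.2 ± 5.87 CPM there, kmt2e 10.2 ± 1.43 CPM, si:ch211-183d21.3 15.8 ± 2.28 CPM and crk 19.2 ± 3.44 CPM (SD, n = 6). For each gene all 6 SCO PCB40 embryos lay below every SCO Hg Fed embryo, as for 0.983% of all genes. The 4 genes were picked by a contrast that uses these SCO PCB40 libraries, so that separation describes them and is no independent evidence.

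**Figure D3:**
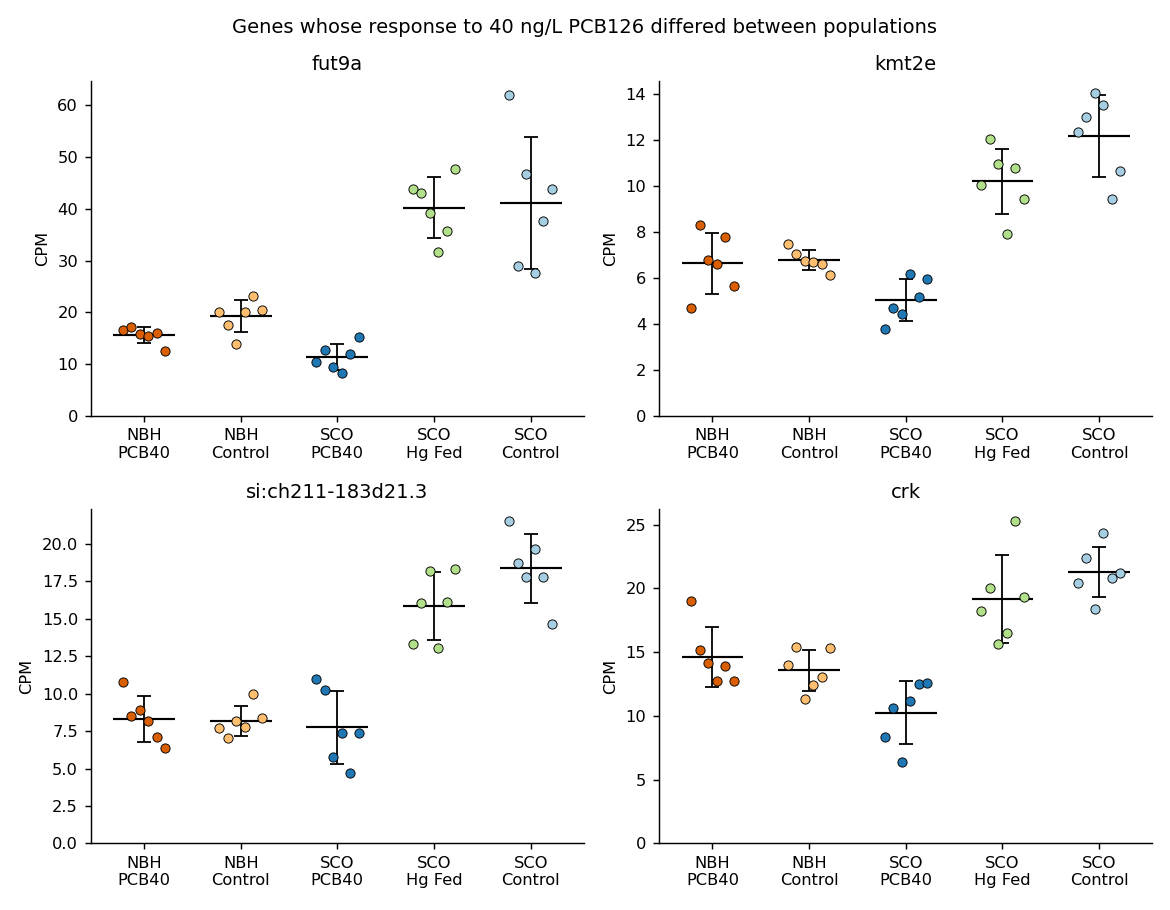
CPM of fut9a, kmt2e, si:ch211-183d21.3 and crk in each brain of NBH PCB40, NBH Control, SCO PCB40, SCO Hg Fed and SCO Control. Points are embryos, bars mean and SD (n = 6). In each panel the SCO Control and SCO Hg Fed brains lie above all SCO PCB40 brains, and the 2 NBH groups overlap.

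The genes next in rank also had positive estimates. The 6 genes with an adjusted p from 0.0536 to 0.0761 were LOC118556247, LOC118556460, ptpn23a, ubap2l, rc3h1b and grid2ipa. LOC118556247 and ubap2l were named by the rule given below, and the others were chosen after their values were seen. LOC118556460 had the highest estimate, at 1.99, with 4.69 ± 2.02 CPM in NBH PCB40, 3.17 ± 0.33 CPM in NBH Control, 3.44 ± 1.47 CPM in SCO PCB40 and 9.21 ± 1.43 CPM in SCO Control (SD, n = 6 each). ubap2l, an RNA-binding protein of stress granules, averaged 59.0 ± 8.40 CPM in NBH PCB40 and 59.2 ± 3.60 CPM in NBH Control, then 51.4 ± 6.53 CPM in SCO PCB40 and 84.1 ± 5.66 CPM in SCO Control. grid2ipa, a scaffold that binds a delta-type glutamate receptor in mammals, averaged 3.56 ± 0.78 CPM in NBH PCB40, 3.42 ± 0.87 CPM in NBH Control, 4.78 ± 0.96 CPM in SCO PCB40 and 10.1 ± 2.09 CPM in SCO Control. For each of the 6 genes, all SCO PCB40 embryos lay below every SCO Control embryo (1.46% of all genes), which describes genes picked for a low p in a contrast that uses these libraries. rc3h1b, a member of the roquin family of RNA-binding proteins, had a difference of 1.23 and ptpn23a, a phosphatase-like protein of endosomal sorting, a difference of 0.85.

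In the other direction 0 genes were called by edgeR. Large negative estimates belonged to LOC118565211 and si:dkey-238o13.4, both of which rose with PCB40 in Scorton Creek. LOC118565211 had 0.265, 0.466 and 1.96 CPM in NBH PCB40, against 0.1, 0.326 and 0.544 CPM in NBH Control. It had 2.18, 13.0 and 23.0 CPM in SCO PCB40, against 0.0626, 0.297 and 0.485 CPM in SCO Control. All 6 NBH PCB40 brains lay below every SCO PCB40 brain, as for 0.404% of all genes. The response was 1.09 in NBH (SE 0.68) and 5.32 in SCO (SE 0.73, adjusted p = 1.14e-04), a difference of -4.22 (SE 0.96, 95% interval -6.18 to -2.27, adjusted p = 0.134). DESeq2 called this difference at an adjusted p of 0.00164. It was not called in 9 other alternatives, where the adjusted p reached 0.587. Nor was it called by edgeR in any of the 24 fits that left out 1 library (adjusted p from 0.0530 to 0.250).

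si:dkey-238o13.4 had 0.0189, 0.238 and 0.988 CPM in NBH PCB40, against 0.0187, 0.0960 and 0.165 CPM in NBH Control. It had 1.18, 6.72 and 13.9 CPM in SCO PCB40, and at most 0.133 CPM in SCO Control, where 1 library had 0 reads. The difference in response was -4.69 (SE 1.22, adjusted p = 0.192, and 0.0201 by DESeq2). It was not called in 9 other alternatives, where the adjusted p reached 0.617, or by edgeR in any of the 24 fits that left out 1 library. The pair are neighbours in the RefSeq annotation, with 0 genes between them, and their CPM ratio stayed between 1.65 and 2.24 in the SCO PCB40 brains. Whether they share reads was not tested, and they are not counted as separate results. With 400 ng/L, NBH embryos had 0.389, 19.2 and 57.2 CPM of LOC118565211 (lowest, median, highest). Those of si:dkey-238o13.4 were 0.160, 10.4 and 29.6 CPM. The lowest LOC118565211 was in NBH PCB400 replicate 6, which also had the lowest CYP1A of that group, at 44.5 CPM. NBH PCB40 replicate 6 had the lowest CYP1A, ahrr, LOC118565211 and si:dkey-238o13.4 of its group.

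ncam3, of the neural cell adhesion molecule family and chosen after its values were seen, had 0.520, 1.48 and 4.97 CPM in NBH PCB40, against 0.267, 0.764 and 1.40 CPM in NBH Control. It had 3.39, 6.44 and 8.59 CPM in SCO PCB40, against 0.482, 0.846 and 2.09 CPM in SCO Control. It rose in SCO by 2.63 (SE 0.49, adjusted p = 0.00205), and its difference in response was -1.50 (SE 0.66, adjusted p = 0.492). si:ch211-136m16.8 had an estimate of 2.05 in NBH (SE 0.47, adjusted p = 0.274) and rose by 2.69 in SCO (SE 0.47, adjusted p = 0.00104), with a difference of -0.65 (SE 0.64, adjusted p = 0.796). fgfbp3, a carrier protein for fibroblast growth factors, averaged 1609 ± 223 CPM in NBH PCB40, 1945 ± 154 CPM in NBH Control, 1611 ± 312 CPM in SCO PCB40 and 1114 ± 136 CPM in SCO Control (SD, n = 6 each). Its difference was -0.80 (SE 0.18, adjusted p = 0.134), and it was called by DESeq2 and without SCO PCB40 replicate 2, at adjusted p-values of 0.0118 and 0.0198. It was not called in 9 other alternatives or in 23 of the 24 fits that left out 1 library. alg3, a mannosyltransferase of N-glycan assembly, had a difference of -0.76 (SE 0.20, adjusted p = 0.199) and sumf1, the activator of sulfatases, a difference of -0.50 (SE 0.13, adjusted p = 0.192); both rose in SCO, by 0.88 and 0.51.

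Among the other low p-values in this direction, values rested on few libraries or varied widely within a group. LOC105939772 had 10.1 CPM in NBH Control replicate 3 and at most 0.668 CPM in every other library. si:dkey-219e21.4 had 0 reads in all 6 SCO Control brains, so no fold is given, and reached 3.68 CPM in NBH Control. LOC118562969 ran from 0.378 to 35.7 CPM in NBH Control, with a median of 9.33 CPM, against 0.189 to 1.13 CPM in NBH PCB40. In SCO PCB40 its median was 0.914 CPM and replicate 6 had 19.3 CPM, against 0.329 to 1.38 CPM in SCO Control.

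The genes with the smallest p in the NBH response were not called by edgeR, and several of them varied widely between embryos. ccdc15, a coiled-coil protein, had 9.10, 16.9 and 20.8 CPM in NBH PCB40, against 7.32, 7.90 and 9.44 CPM in NBH Control, a log2 difference of 1.01 (SE 0.22, adjusted p = 0.274). In SCO it was -0.27 (SE 0.22), and the difference in response was 1.27 (SE 0.31, adjusted p = 0.161). ccna1, which encodes cyclin A1, had an NBH estimate of 3.68, but its median was 0.288 CPM and its highest embryo 11.7 CPM in NBH PCB40. rab4a, a small GTPase of endosome recycling, had 1.79, 2.81 and 3.81 CPM in NBH PCB40, against 2.60, 24.5 and 28.5 CPM in NBH Control. It ran from 2.82 to 24 CPM in SCO PCB40, against 2.17 to 18.5 CPM in SCO Control, and single embryos of several groups lay near either extreme. ppp1r16a, a regulatory subunit of protein phosphatase 1, had an estimate of -2.32 in NBH (SE 0.52, adjusted p = 0.274) and of -0.19 in SCO. onecut3a, a homeodomain transcription factor, had an estimate of -0.65 in NBH (SE 0.16, adjusted p = 0.380) and of 0.20 in SCO.

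The SCO and NBH responses share no library, so the genes called in SCO could be looked up in NBH. The 175 genes that rose in SCO had a median response of 0.12 in NBH and 0.79 in SCO. Of them 127 (72.6%) were also above 0 in NBH, where 52.6% of all genes were. The 447 genes that fell in SCO had a median of -0.03 in NBH and -0.62 in SCO, and 268 (60.0%) were below 0 in NBH, against 47.4% of all genes. The medians for SCO are those of genes selected for their SCO response, so their size is no finding. Of the 622 genes, 4 were called as different in response, which does not show that the remaining genes responded alike.

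**Figure D4:**
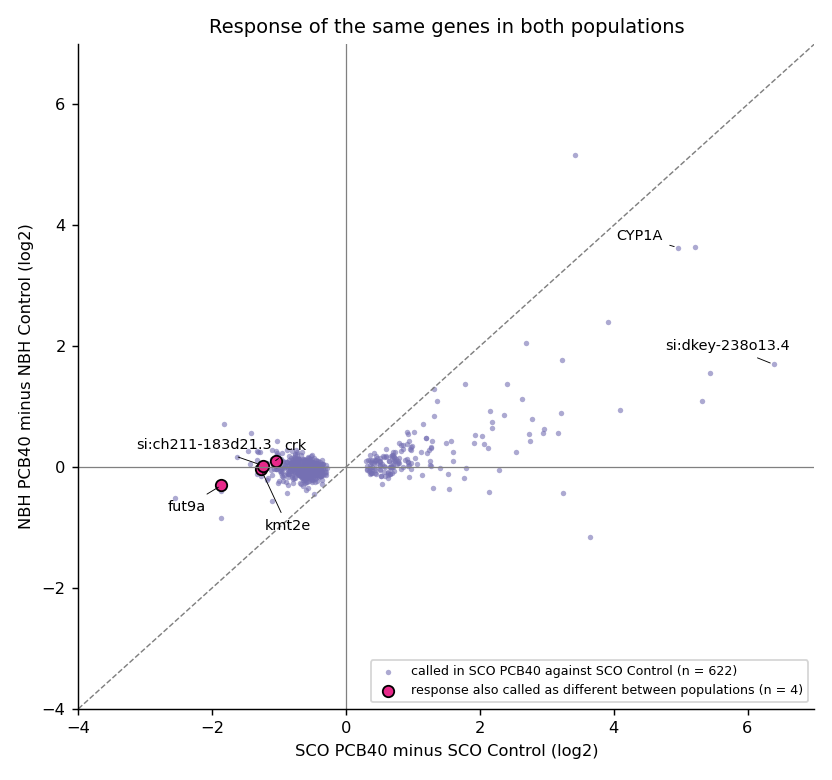
NBH response (vertical axis) against SCO response (horizontal axis), both log2, for the 622 genes called in SCO, of which 619 lie within the axes. The dashed line marks equal responses. Most points lie near 0 on the NBH axis, CYP1A lies below the line at 3.63 in NBH and 4.96 in SCO, and the 4 genes also called as different in response are marked.

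Several lists of neuronal function had small positive medians, with NBH medians close to 0 and SCO medians below it. Across 49 genes of glutamate receptors and transport, the median response was -0.03 in NBH and -0.22 in SCO, with a median difference of 0.19, against -0.01 over all genes. Of the 49, 9 had a positive and 1 a negative difference at an unadjusted p under 0.05, that is 18.4% and 2.04%, beside 5.62% and 3.55% of all genes. Examples are shank1, a postsynaptic scaffold, at 1.22 (SE 0.36, adjusted p = 0.255), and slc17a8, a vesicular glutamate transporter, at 1.1 (SE 0.36, adjusted p = 0.342). For 32 GABA and glycine genes the median difference was 0.24, with gad2, which makes GABA, at 1.63 (SE 0.58, adjusted p = 0.384). For 62 axon guidance genes it was 0.23, with 7 (11.3%) positive and 0 negative at the unadjusted level, beside 5.62% and 3.55% of all genes. With the length trend removed 3 were positive and 0 negative, beside 1109 and 827 of all 23292 genes. sema3ab, a secreted guidance cue, averaged 10.1 ± 2.41 CPM in NBH PCB40, 9.92 ± 1.81 CPM in NBH Control, 10.1 ± 1.03 CPM in SCO PCB40 and 17.0 ± 0.96 CPM in SCO Control, a difference of 0.77 (SE 0.19, adjusted p = 0.161). With the length trend removed, the median differences of these lists were 0.06 for glutamate, 0.15 for GABA and glycine, and 0.06 for axon guidance. In that fit 8 of 49 glutamate genes were positive and 1 negative at the unadjusted level, beside 1109 and 827 of all 23292 genes. Without NBH PCB40 replicate 1 the medians were 0.09 for glutamate, 0.15 for GABA and glycine, and 0.13 for axon guidance. The median difference of 43 voltage-gated ion channel genes was 0.10, but -0.02 with the length trend removed and 0.003 without NBH PCB40 replicate 1. For 48 neuron differentiation and growth genes it was 0.01, with an SCO median of 0.07, and -0.03 with the length trend removed.

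Chromatin and clock genes gave positive medians as well. Of 97 chromatin modifiers, 1 was called (kmt2e), 13 had a positive and 0 a negative difference at the unadjusted level, with a median of 0.17, beside 5.62% and 3.55% of all genes. With the length trend removed, 7 were positive and 5 negative, beside 1109 and 827 of all 23292 genes. In that fit kmt2e was not called by edgeR (adjusted p = 0.152) and the list median was 0.02. Without NBH PCB40 replicate 1 the median was 0.06. arid2, a subunit of a SWI/SNF remodelling complex, averaged 13.6 ± 3.25 CPM in NBH PCB40, 13.7 ± 0.98 CPM in NBH Control, 15.3 ± 3.94 CPM in SCO PCB40 and 27.8 ± 5.03 CPM in SCO Control, a difference of 0.85 (SE 0.20, adjusted p = 0.141). Of 33 clock genes, 6 (18.2%) had a positive and 0 a negative difference at the unadjusted level, beside 5.62% and 3.55% of all genes. The 6 were bhlhe41, bhlhe40, cry2, per3, csnk1da and rorb, from 0.39 to 1.12. The list median was 0.25, and was 0.15 with the length trend removed and 0.16 without NBH PCB40 replicate 1. With the length trend removed 5 clock genes were positive and 0 negative at that level, beside 1109 and 827 of all 23292 genes. Among 56 glycan synthesis genes 1 was called (fut9a) and the median was 0.07. casd1, a sialic acid acetyltransferase, followed fut9a at 0.97 (SE 0.25, adjusted p = 0.184).

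Genes of protein synthesis and energy gave list medians that moved with the length correction. Of 75 cytosolic ribosomal protein genes, 70 had a positive difference, beside 11306 of all 23292 genes, and 0 were called. The list median was 0.25, and 0.55 with the length trend removed. The 46 nuclear genes of mitochondrial respiration had a median of -0.12, and of 0.18 with the trend removed. Of 28 oxidative stress and glutathione genes 4 (14.3%) had a negative and 0 a positive difference at the unadjusted level, beside 3.55% and 5.62% of all genes. The 4 were srxn1, gpx1a, fth1a and prdx4, from -1.1 to -0.50. With the length trend removed, 3 of the 28 were negative and 1 positive at that level, beside 827 and 1109 of all 23292 genes. The list median was -0.22, or -0.06 with the length trend removed. srxn1, which repairs peroxiredoxins, had an estimate of 0.00 in NBH and rose by 0.85 in SCO.

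Markers of other cell types had negative medians in several lists, with 0 members called. Over all 23292 genes tested, 11986 had a negative and 11306 a positive difference. Of 24 tested microglia and leukocyte markers 21 had a negative difference, 0 were called and 7 (29.2%) were negative at the unadjusted level, beside 3.55% of all genes. The median was -0.53, made of 0.05 in NBH and 0.45 in SCO, and was -0.30 with SCO Hg Fed in place of SCO Control. hcls1, a haematopoietic cytoskeletal adaptor, averaged 1.82 ± 0.29 CPM in NBH PCB40, 1.75 ± 0.41 CPM in NBH Control, 3.22 ± 0.87 CPM in SCO PCB40 and 1.55 ± 0.27 CPM in SCO Control (SD, n = 6 each). It rose in SCO by 1.06 (adjusted p = 0.00205), and the difference was -1.0 (SE 0.28, adjusted p = 0.228). spi1b, the myeloid transcription factor PU.1, rose in SCO by 0.79 (adjusted p = 0.0400), with a difference of -0.65 (SE 0.30, adjusted p = 0.525). The summed level of the 27 matched markers, tested or not, ran from 2562 to 5706 CPM in NBH PCB40, 2079 to 6039 CPM in NBH Control, 1541 to 4048 CPM in SCO PCB40 and 1335 to 2775 CPM in SCO Control. Of these markers, tnfa was at 0 in all 24 libraries. In whole-brain RNA, more cells of a type and more RNA per cell cannot be told apart, and the part of these markers in the other results was not tested.

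A dissected brain can also carry skeletal muscle. Of 35 muscle markers tested, 26 had a negative difference, with a median of -0.64, and 9 (25.7%) were negative and 2 (5.71%) positive at the unadjusted level, beside 3.55% and 5.62% of all genes. Whatever their p, 11986 of all 23292 genes had a negative and 11306 a positive difference, which is the base for the sign counts given here. ckmb, a muscle creatine kinase, had an estimate of 0.56 in NBH and rose in SCO by 3.16 (adjusted p = 0.0216), a difference of -2.60 (SE 1.03, adjusted p = 0.435). The summed level of the 44 matched muscle markers ran from 44.4 to 183 CPM in NBH PCB40, 48.7 to 146 CPM in NBH Control, 49.9 to 554 CPM in SCO PCB40 and 47.4 to 84.6 CPM in SCO Control, and 0 of the 44 were at 0 in all libraries. The 13 posterior hox genes, markers of hindbrain and spinal cord, all had a negative difference with a median of -0.90 and 0 calls. With SCO Hg Fed in place of SCO Control that median was -0.17, and the median response in SCO was -0.11, against 0.55 with SCO Control as baseline. Without SCO PCB40 replicate 3 it was -0.41, and by limma-voom -1.63. The summed level of the 27 matched posterior hox genes ran from 46.9 to 314 CPM in NBH PCB40, 155 to 303 CPM in NBH Control, 39.2 to 441 CPM in SCO PCB40 and 14.6 to 236 CPM in SCO Control. Of these 27 genes, 6 (hoxa9b, hoxa11b, hoxc10a, hoxc11a, hoxd10a and hoxd11a) were at 0 in all 24 libraries. Of 14 pituitary genes 12 had a positive difference, with a median of 0.76 and 0 calls. That median was 0.45 without SCO Control replicate 5, 1.81 without SCO PCB40 replicate 6, 1.45 with a replicate block and 1.87 by limma-voom. The summed level of the 17 matched pituitary genes ran from 367 to 712 CPM in NBH PCB40, 351 to 961 CPM in NBH Control, 272 to 710 CPM in SCO PCB40 and 390 to 631 CPM in SCO Control, with 0 of them at 0 in all libraries. With scores of muscle, posterior hox and pituitary markers as covariates, 1 gene (fut9a) was called as different in response and 170 in SCO.

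**Figure D5:**
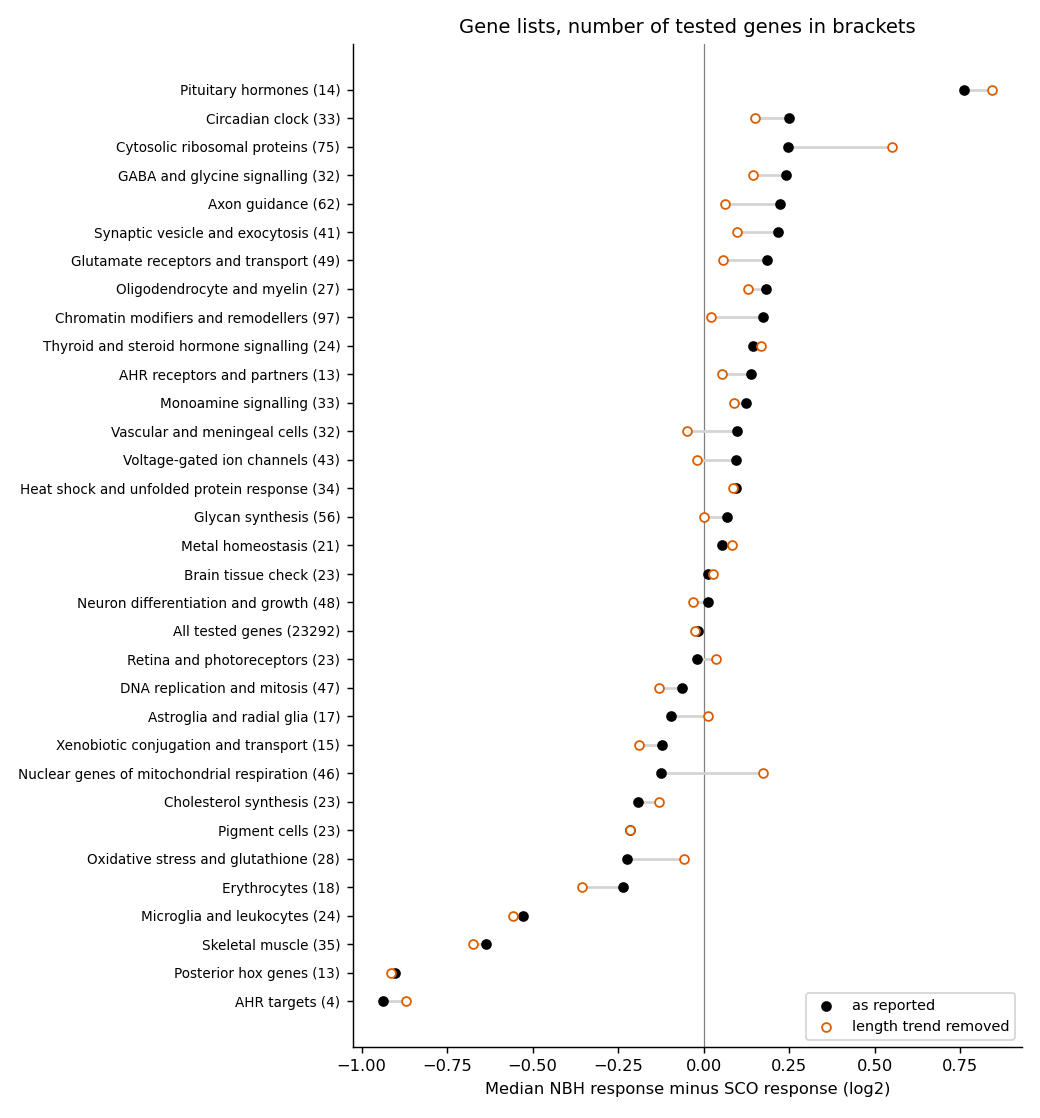
Median NBH response minus SCO response (log2, horizontal axis) for each gene list and for all genes tested, with the number of genes in brackets. Filled points are the values reported and open points those with the length trend removed. AHR targets (4 genes), microglia, muscle and posterior hox lists lie below -0.5 in these 2 fits. With SCO Hg Fed in place of SCO Control, microglia was at -0.30 and posterior hox at -0.17. The median of mitochondrial respiration genes is -0.12 as reported and 0.18 with the trend removed.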

How the data were processed

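Whole-brain RNA of individual embryos was sequenced after column extraction (RNeasy Micro), as the labels' protocols describe. The deposited files give, per the file headers, an expected count (estimated number of reads, not normalized) and an effective length in bases for each of 56244 RefSeq transcripts in each library. The submitters' processing notes list Salmon 1.3.0 and edgeR 3.30.3 without saying what each was used for. The genome build and any trimming are not given in the sources used here, so no coordinates are printed.

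All 56244 transcripts matched a gene of the RefSeq table supplied for the species, giving 31637 genes, of which 17426 have only a LOC number. The expected counts of a gene's transcripts were added and rounded to whole numbers. Totals of the 24 libraries were 40.4 to 66.4 M (M, 1e6), and 3 counts, taken as the floor, equal 0.0451 to 0.0742 CPM (counting error only). Genes were filtered with filterByExpr and scaled by TMM. A single quasi-likelihood model (edgeR 4.0.16, R 4.3.3) with a mean for each of 6 groups was fitted to 36 libraries, and the contrasts of the 4 groups were taken from it, two-sided, with Benjamini-Hochberg adjustment over 23292 genes. The response difference is (NBH PCB40 minus NBH Control) minus (SCO PCB40 minus SCO Control). Standard errors and 95% intervals come from the F statistics. Levels are TMM-scaled CPM. The steps were run on simulated counts with an assumed spread, no length slope and changes in NBH PCB40 only. That run checks the steps and does not give the power or the rate of false calls in these data.

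The 32 gene lists (1569 entries, 1136 matched by symbol or synonym) and the rule for named genes were written with earlier results of these data known, and no set test was made. The rule took the 5 genes with the smallest p in each direction where fewer than 5 were called, all tested AHR targets and partners, up to 3 called members of each list, and the leading named genes of each population's response (5 and 5 in SCO, 3 and 3 in NBH), 37 genes in all. Genes outside it (such as list members) were chosen after their values were seen. Alternatives were DESeq2 1.42.0, limma-voom (limma 3.58.1), RLE scaling, no filter, the 24 libraries alone, a replicate block, 2 length corrections, tissue scores and leaving out each library. Replacing SCO Control by SCO Hg Fed was added after seeing the data.

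Correlation across genes within groups was 0.968 to 0.990 over 60 pairs, with 0 identical pairs.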

Additional observations from a re-analysis of the deposited data

Results flagged for a closer look

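The response to PCB40 differed between populations for fut9a (1.56), kmt2e (1.24), si:ch211-183d21.3 (1.27) and crk (1.16), as NBH response minus SCO response on the log2 scale, each by edgeR's test of the difference itself. CYP1A averaged 396 CPM in the NBH PCB400 group, which the contrast does not use, against 6.47 CPM in NBH Control.

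In 13 of 156 groups of 6 embryos examined, an embryo lay far from the others of its group by Dixon's test, which flags about 1 in 20 groups by chance. In NBH PCB40 they were replicate 6 for fut9a (12.6 CPM, low), replicate 1 for LOC105939772 (0.0402 CPM, low), replicate 1 for arnt (4.48 CPM, high) and replicate 5 for ccdc15 (9.10 CPM, low). The length slope of NBH PCB40 replicate 1 was 0.151, where the other 5 were negative. In NBH Control they were replicate 3 for LOC105939772 (10.1 CPM, high), replicate 6 for ncoa1 (5.6 CPM, low) and replicate 5 for rab4a (2.60 CPM, low). In SCO PCB40 they were replicate 6 for LOC118562969 (19.3 CPM, high) and for rab4a (24 CPM, high), replicate 5 for wfikkn1 (2.95 CPM, high) and replicate 3 for si:ch211-136m16.8 (4.46 CPM, high). In SCO Control it was replicate 1 for ahr2 (2.02 CPM, low).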

How the results depend on the processing

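The count of genes called as different in response, 4 as reported, was 76 by DESeq2 (54 positive, 22 negative), 7 by limma-voom, 2 with the 24 libraries alone (fut9a and kmt2e), 1 with tissue scores as covariates and 2 with SCO Hg Fed in place of SCO Control, a fit that shares 3 of the 4 groups. All 4 genes were among those called by DESeq2 and by limma-voom. Of the 5 genes called with the length trend removed, 2 were among the 4. Leaving out 1 library gave 2 to 30 genes. It gave 2 without NBH PCB40 replicate 1 or SCO Control replicate 1, 7 without SCO Control replicate 6, 8 without NBH Control replicate 5, 9 without SCO PCB40 replicate 1, 10 without NBH PCB40 replicate 6 and 30 without SCO PCB40 replicate 2. The NBH count of 0 was 18 by DESeq2 and 0 to 1 with a library left out (CYP1A, without NBH PCB40 replicate 6). The SCO count of 622 was 1303 by DESeq2, 170 with tissue scores and 247 to 1470 with a library left out. The lowest counts were 247 without SCO PCB40 replicate 5, 253 without SCO PCB40 replicate 4, 262 without SCO Control replicate 1, 290 without SCO Control replicate 4 and 377 without SCO Control replicate 3, and the highest was 1470 without SCO PCB40 replicate 2. The causes were not tested.

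fut9a was called in all alternatives run, with an adjusted p of at most 0.0384. kmt2e was not called with the length trend removed (adjusted p = 0.152), with tissue scores (0.0859) or with SCO Hg Fed (0.0752). si:ch211-183d21.3 was not called in the 24 libraries alone (0.0755), with tissue scores (0.175), with SCO Hg Fed (0.0752) or without NBH PCB40 replicate 1 (0.0514) or SCO Control replicate 1 (0.0503). crk was not called in 10 of the 24 fits without a library, nor in the 24 libraries alone (0.0631), after either length correction (0.120 and 0.0510), with tissue scores (0.175) or with SCO Hg Fed (0.0752). The CYP1A difference ran from -2.26 to -0.86 and was not called in any alternative, with a range of -1.77 to -1.06 over the fits that left out a library.

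Of 1257 alternative values of named genes, 22 changed sign, each for a gene that was not called. ahr2 was 0.079 with SCO Hg Fed and ran from -0.099 to 0.082 over the fits without a library. wfikkn1 ran from -0.63 to 0.20 over those fits, hsp90aa1.2 from -0.026 to 0.23 and ncoa3 from -0.0081 to 0.14. hsp90aa1.2 was -0.043 with SCO Hg Fed, ptges3b 0.10 with the length slope as a covariate, and hsp90ab1 -0.0030 with tissue scores. With the length trend removed ncoa1 was -0.12 and ncoa3 -0.15, and with the slope as a covariate ncoa1 was -0.053.

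The replicate numbers were not taken as pairs, since in no 2 groups did every same-numbered pair of libraries correlate above 0.1 in its deviations from the group means. Over 36 pairs r ran from -0.302 to 0.537, and 10 were above 0.1. Of those, 5 were among the 6 pairs of NBH PCB40 with SCO PCB40, where number 2 was at -0.194. Between these 2 groups, 1 of 6 NBH PCB40 and 3 of 6 SCO PCB40 libraries correlated best with their own number. With the replicate number as a block, 5 genes were called as different in response, 0 in NBH and 644 in SCO, and the CYP1A difference was -1.93. Genes under 1 CPM in most groups, such as ahrr and nqo1, have wide intervals at this depth.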
